A study of Homo sapiens with 24 samples.

Results

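Adding irradiation to APR-246 in the p53 mutant line of HCT116 was examined in 4 of the 24 RNA libraries of the study. These are the 2 libraries labelled P53 Mutant, APR-246 plus irradiation, and the 2 labelled P53 Mutant, APR-246, taken by their sample titles, over every gene in the files. HCT116 is a colorectal cancer cell line, here in 3 versions whose p53 is wild type (WT), mutant (Mutant) or absent (Null), and APR-246 is a compound developed to restore activity to mutant p53. The cells of both groups had received 20 uM APR-246. Those of the combination were then irradiated with 6 Gy, and cells were collected 72 hours after irradiation. Each p53 status is represented by 1 line, so p53 status and the line cannot be told apart. Neither side of this comparison holds a solvent library, though all 24 libraries, solvent ones among them, entered the fit. The labels number the replicates without stating whether they are separate cultures. Each p-value measures the spread between libraries of the same group, pooled over all 24 libraries, and that spread may be technical.

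Ionizing radiation breaks DNA. In cells with working p53 the break signal stabilises p53, which raises CDKN1A, the inhibitor of cyclin-dependent kinases, and MDM2, the ligase that degrades p53. Days after irradiation, DNA from micronuclei and RNA can also reach cytosolic sensors, among which RIGI senses RNA. Interferon-stimulated genes are then transcribed through factors that bind a promoter element called the ISRE. Immediate early genes such as EGR1 and FOS are switched on through serum response factor, which binds the CArG box.

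The promoters of 3 genes described below are shown because each carries such an element. They are the 250 bases before the start, from RefSeq on GRCh38.p14, written 5′ to 3′ along the gene with the element named for each gene in capitals. The ISRE was searched as TTTCNNTTTC and the CArG box by its usual consensus, each on both strands, and overlapping matches run together in the capitals. IFIT1, an RNA-binding antiviral protein, lies at chr10:89392373-89392622 (plus strand) and has 2 ISRE matches. ISG15, a ubiquitin-like modifier, lies at chr1:1013247-1013496 (plus strand) and has 2 ISRE matches on the opposite strand. It also holds a CArG box match, left in lower case. EGR1, a zinc finger transcription factor, lies at chr5:138465229-138465478 (plus strand) and has 2 CArG boxes.
IFIT1: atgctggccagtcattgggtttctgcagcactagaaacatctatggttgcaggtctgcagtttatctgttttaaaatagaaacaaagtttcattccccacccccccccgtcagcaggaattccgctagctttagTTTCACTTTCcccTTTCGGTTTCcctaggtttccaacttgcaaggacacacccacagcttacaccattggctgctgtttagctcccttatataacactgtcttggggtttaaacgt
ISG15: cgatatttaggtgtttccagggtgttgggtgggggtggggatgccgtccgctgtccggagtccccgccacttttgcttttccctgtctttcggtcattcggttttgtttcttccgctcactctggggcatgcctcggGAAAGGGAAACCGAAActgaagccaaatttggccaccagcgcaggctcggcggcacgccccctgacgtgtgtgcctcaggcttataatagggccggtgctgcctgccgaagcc
EGR1: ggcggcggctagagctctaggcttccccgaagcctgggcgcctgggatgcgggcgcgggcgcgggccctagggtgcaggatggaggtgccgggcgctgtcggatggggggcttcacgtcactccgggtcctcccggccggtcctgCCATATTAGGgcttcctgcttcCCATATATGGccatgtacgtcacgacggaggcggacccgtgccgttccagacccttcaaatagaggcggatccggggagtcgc
Of 27305 promoters of this length, 3.07% hold the ISRE and 1.14% the CArG box. The ISRE was found in 13 of the 26 interferon-stimulated genes tested that have a promoter entry, and in 5 of the 41 genes with an entry among the 67 called higher below. The CArG box was found in 1 of the 16 immediate early genes with an entry, which is EGR1, and in 3 of those 41. A match describes the letters and shows no binding.

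The 4 libraries held 54550114 to 56840392 reads assigned to genes, and levels are given as CPM, the reads of a gene scaled to the total of its library. Genes with any read numbered 27494 and 22125 under APR-246 and 27561 and 26047 after the combination. The 22125 of APR-246 library 2 was the lowest of all 24 libraries, and its part in the differences of low genes was not tested. Of 20 markers of colon epithelium, 7 stood above 1 CPM in every library, namely EPCAM, CDH1, CDX2, ELF3, KRT8, KRT18 and KRT19. The other 13, among them VIL1, CDH17 and CEACAM5, stood at 0.633 CPM or less, with PHGR1 and TFF3 at 0. Blood cell markers summed to 3.24 to 7.37 CPM over 15 genes, with MS4A1 and CD3D at 0 and PTPRC at 0.164 CPM or less. Endothelial markers summed to 2.22 to 3.64 CPM. Fibroblast markers summed to 16.1 to 51.2 CPM, most of it COL1A1. TAGLN stood at 2.24 to 4.24 CPM and ACTA2 at 1.64 to 2.04 CPM, while DCN, LUM and PDGFRA stood at 0.0528 CPM or less.

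Across all genes the addition of irradiation gave few changes that exceeded the spread between libraries. The limma test on log2 of scaled CPM plus 0.5 called 0 of 20668 genes (0%) at an adjusted p of 0.05, with 708 genes at an unadjusted p under 0.05. The edgeR quasi-likelihood test also called 0, with 558 genes at that level, and DESeq2 called 7, all higher. The libraries of each group differed along gene GC content: the slope of log2 level on GC percent was -0.0265 and 0.0291 under APR-246 and -0.0181 and 0.0212 after the combination. With that slope as a covariate the differences hardly moved, the median standard error fell from 0.321 to 0.182, and 67 genes were called higher (0.324%) and 9 lower (0.0435%). Calls made this way are given below as "with the GC slope", and rose or fell is written only of genes that passed there. They depend on each library: the 67 higher and 9 lower became 8 and 16 without APR-246 library 1, 14 and 2 without APR-246 library 2, 8 and 0 without combination library 1, and 6 and 0 without combination library 2. The balance of directions thus turned without APR-246 library 1. WNT7A, OASL and ARC were called in each of those 4 fits and no other gene was.

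WNT7A, a secreted WNT ligand (chromosome 3, 13816258 to 13880121, minus strand, GENCODE 29 on GRCh38), stood at 0.563 and 0.873 CPM under APR-246 and 3.60 and 4.58 CPM after the combination. Both irradiated libraries were above both others, a 5.70-fold difference of the means. On the log2 scale it rose by 1.80 ± 0.20 (adjusted p = 6.04e-05) with the GC slope, against an adjusted p of 0.191 without it. OASL, a member of the oligoadenylate synthetase family that binds RIGI (chromosome 12, 121019111 to 121039242, minus strand), stood at 6.40 and 9.96 CPM under APR-246 and 25.0 and 33.3 CPM after the combination. It rose 3.56-fold, or by 1.66 ± 0.17 (adjusted p = 4.06e-05) on the log2 scale. ARC, an immediate early gene best known from neurons (chromosome 8, 142611044 to 142614472, minus strand), stood at 44.3 and 55.5 CPM under APR-246 and 124 and 129 CPM after the combination. The groups did not overlap, and ARC rose by 1.22 ± 0.14 (adjusted p = 0.000145). Without the GC slope the adjusted p was 0.761 for OASL and 1 for ARC.

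**Figure D1:**
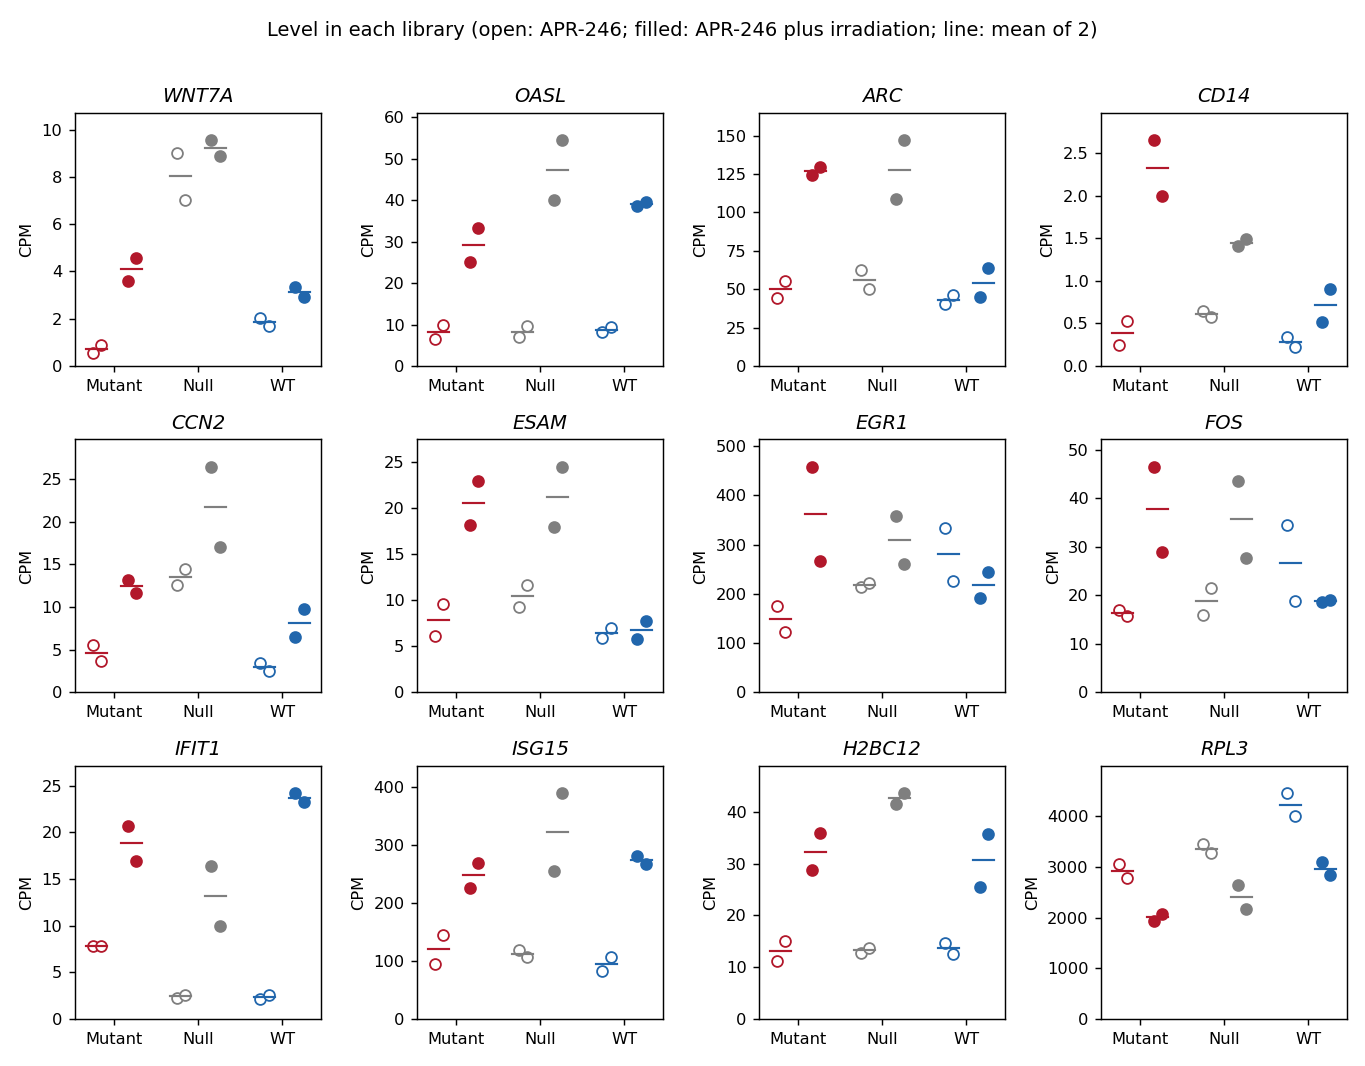
CPM of 12 genes in the APR-246 libraries (open points) and the combination libraries (filled points) of the Mutant, Null and WT lines, with a line at the mean of each pair. In Mutant the 2 filled points lie above the 2 open points for 11 genes and below them for RPL3.

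Further genes rose with the GC slope, several of which encode secreted or surface proteins. TRIM29, a tripartite motif protein, stood at 0.281 and 1.85 CPM under APR-246 and 3.80 and 5.94 CPM after the combination and rose by 1.80 ± 0.29 (adjusted p = 0.00698). CD14, the lipopolysaccharide co-receptor of monocytes, stood at 0.246 and 0.527 CPM under APR-246 and 2.65 and 2.0 CPM after the combination and rose by 1.56 ± 0.26 (adjusted p = 0.00698). It was the only one of 9 blood markers tested that was called, and the part of other cells in its level was not tested. ESAM, an adhesion molecule of endothelial junctions, stood at 6.16 and 9.55 CPM under APR-246 and 18.2 and 23.0 CPM after the combination and rose by 1.23 ± 0.17 (adjusted p = 0.000949). None of the 5 endothelial markers tested was called. WNT10A, a second WNT ligand, stood at 1.94 and 2.24 CPM under APR-246 and 3.98 and 8.07 CPM after the combination and rose by 1.15 ± 0.24 (adjusted p = 0.0414), with the second combination library well above the first.

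APOE, the lipid carrier, rose from 3.31 and 2.98 CPM to 8.05 and 8.54 CPM. MCAM, a surface adhesion molecule, stood at 29.4 and 26.7 CPM under APR-246 and 56.7 and 49.1 CPM after the combination and rose by 0.78 ± 0.12 (adjusted p = 0.00269). DLL1, a Notch ligand, stood at 12.1 and 6.56 CPM under APR-246 and 21.4 and 14 CPM after the combination and rose by 0.80 ± 0.17 (adjusted p = 0.0449). HAS3, a hyaluronan synthase, SEMA7A, a membrane semaphorin, and AQP3, a water and glycerol channel, also rose, by 0.82 ± 0.18, 0.81 ± 0.17 and 0.73 ± 0.16 on the log2 scale. Of the 67 genes, 65 had no overlap between the groups, which over all genes was the case for 16.3% in that direction, and RIGI and IGFBP6 did overlap. The 67 were chosen by a test on these same libraries, so their lack of overlap follows in part from the choice and adds no support. Mean levels stayed under 1 CPM in both groups for 16 of the 67, which rest on few reads.

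Transcription factors and enzymes were also among the genes that rose. TBX3, a T-box repressor, stood at 6.56 and 5.91 CPM under APR-246 and 16.5 and 12 CPM after the combination and rose by 1.00 ± 0.21 (adjusted p = 0.0391). SOX8, an SRY-related factor, stood at 18.9 and 19.9 CPM under APR-246 and 33.7 and 35.2 CPM after the combination and rose by 0.69 ± 0.12 (adjusted p = 0.0144). PRDM1, the repressor known as BLIMP1, stood at 0.352 and 0.255 CPM under APR-246 and 1.33 and 1.01 CPM after the combination, low in all 4 libraries, and rose by 0.98 ± 0.21 (adjusted p = 0.0474). DHRS2, a short-chain dehydrogenase, stood at 9.27 and 12.7 CPM under APR-246 and 35.5 and 38.5 CPM after the combination, a 3.36-fold difference of means, and rose by 1.59 ± 0.28 (adjusted p = 0.0203). ACHE, acetylcholinesterase, rose by 1.05 ± 0.16 (adjusted p = 0.00307), and NOCT, a circadian phosphatase, by 0.76 ± 0.17 (adjusted p = 0.0474). GAL, the neuropeptide galanin, stood at 59.3 and 87.2 CPM under APR-246 and 105 and 140.3 CPM after the combination, and IGFBP6, a carrier of insulin-like growth factor, at 82.8 and 152 CPM under APR-246 and 149 and 243 CPM after the combination. In both genes the libraries numbered 2 were the higher of each pair, and the rises were 0.63 ± 0.14 (adjusted p = 0.0474) and 0.63 ± 0.13 (adjusted p = 0.0414). LTBP2, a matrix protein, stood at 3.69 and 1.91 CPM under APR-246 and 7.85 and 4.97 CPM after the combination and rose by 0.98 ± 0.20 (adjusted p = 0.0367).

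Genes with a symbol, at least 1 CPM in a group and no overlap were ranked by unadjusted p in the higher direction. Of the 12 smallest, 10 passed with the GC slope. Beside WNT7A, CD14, CCN2 and IFIT1 these were P3H2, CCDC80, PDE6G, EPSTI1, ESPNL and NPPC. P3H2, a collagen prolyl hydroxylase, stood at 0.985 and 0.582 CPM under APR-246 and 2.9 and 2.36 CPM after the combination and rose by 1.21 ± 0.22 (adjusted p = 0.0172). CCDC80, a secreted matrix protein, stood at 1.02 and 0.545 CPM under APR-246 and 3.19 and 1.91 CPM after the combination and rose by 1.15 ± 0.22 (adjusted p = 0.0222). POU2F1-DT and LINC02577, both noncoding, did not pass at 0.86 ± 0.19 (adjusted p = 0.0531) and 0.73 ± 0.19 (adjusted p = 0.105).

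Among the 9 genes that fell, RPL3, a protein of the large ribosomal subunit, stood at 3069.9 and 2791 CPM under APR-246 and 1942 and 2075 CPM after the combination and fell by 0.67 on the log2 scale (adjusted p = 0.037). NR2F1, an orphan nuclear receptor, stood at 432 and 163 CPM under APR-246 and 211 and 117 CPM after the combination, with groups that overlap, and changed by -0.88 ± 0.18 (adjusted p = 0.0414). TEAD2, a DNA-binding partner of YAP, stood at 32.9 and 36.9 CPM under APR-246 and 23.1 and 26.8 CPM after the combination and changed by -0.60 ± 0.13 (adjusted p = 0.0449). MYO18A, an unconventional myosin, changed by -0.60 ± 0.13 (adjusted p = 0.0481). NEBL, TNS2, ARHGAP18, SMIM3 and PSKH1 complete the set, at -0.56 to -0.72. Of the 9, 6 had no overlap between the groups (4.71% of all genes in that direction). These genes too were chosen by a test on the same libraries, so that count adds no support. In the lower direction, the 12 genes of smallest unadjusted p were taken among those with a symbol, 1 CPM in a group and no overlap. MYO18A was the only one of these 12 to pass. The others, AKAP7, PPP1R1B, KLRK1-AS1, ASB9, NUDT6, TMEM17, HBG2, FRG1BP, RPS6KA2, STRADB and CYP2J2, lay between -0.91 and -0.55 and did not pass.

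Interferon-stimulated genes were mostly higher after the combination. The median over 34 of 36 genes tested was 0.33 on the log2 scale, against 0.00 over all genes, and 30 of the 34 lay above 0. That median was 0.58 without combination library 2, 0.65 with a pseudocount of 0.1 and 0.20 with one of 2. With the GC slope 6 of the 34 rose and 0 fell, where all genes gave 0.324% and 0.0435%. The groups did not overlap for 16 of the 34 in the higher direction and 1 in the lower, where all genes gave 16.3% and 4.71%. IFIT1 stood at 7.86 and 7.80 CPM under APR-246 and 20.7 and 16.9 CPM after the combination and rose by 1.08 ± 0.20 (adjusted p = 0.0173). ISG15 stood at 94.2 and 145 CPM under APR-246 and 226 and 269 CPM after the combination and rose by 0.94 ± 0.14 (adjusted p = 0.00269). IFI6, a mitochondrial protein, rose by 0.94 ± 0.19 (adjusted p = 0.0391), and IRF7, the transcription factor of late interferon induction, by 0.82 ± 0.17 (adjusted p = 0.0399). RIGI, the cytosolic RNA sensor, stood at 6.93 and 1.89 CPM under APR-246 and 12.2 and 4.97 CPM after the combination, where the libraries numbered 1 were the higher of each pair, and rose by 0.88 ± 0.19 (adjusted p = 0.0414). STAT2 and IRF1, transcription factors of the interferon response, did not pass at -0.39 ± 0.14 (adjusted p = 0.271) and 0.09 ± 0.14 (adjusted p = 0.889). MX1, an antiviral GTPase, was at -0.20 ± 0.29 (adjusted p = 0.883).

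Immediate early genes, a list put together after the values were seen, were all above 0. The median over 19 genes was 0.74, and the groups did not overlap for 14 in the higher direction (16.3% of all genes). ARC, EGR1 and FOS rose with the GC slope (0.324% of all genes). That median was 0.43 with the GC slope and without APR-246 library 2. EGR1 stood at 175 and 122 CPM under APR-246 and 459 and 268 CPM after the combination and rose by 1.13 ± 0.20 (adjusted p = 0.0203). FOS, a subunit of AP-1, stood at 17 and 15.7 CPM under APR-246 and 46.5 and 28.9 CPM after the combination and rose by 1.02 ± 0.20 (adjusted p = 0.0246). JUN, its partner, stood at 86.3 and 45.3 CPM under APR-246 and 263 and 163 CPM after the combination, a 3.23-fold difference, and did not pass at 1.59 ± 0.38 (adjusted p = 0.111). ATF3 and NR4A1, further transcription factors, were at 1.15 ± 0.34 (adjusted p = 0.194) and 0.80 ± 0.23 (adjusted p = 0.167).

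Replication-dependent histone genes had a median of 0.47 over 30 of 50 genes tested, with 27 above 0. It was 0.80 with a pseudocount of 0.1 and 0.18 with one of 2. H2BC12, H1-2, H2BC5 and H2AC6 rose with the GC slope and 0 fell (0.324% and 0.0435% of all genes). H2BC12 stood at 11.2 and 15.1 CPM under APR-246 and 28.7 and 36.0 CPM after the combination and rose by 1.15 ± 0.17 (adjusted p = 0.00274), and H1-2, a linker histone, stood at 19.6 and 28.4 CPM under APR-246 and 46.8 and 62.1 CPM after the combination and rose by 1.05 ± 0.17 (adjusted p = 0.00741). Most such transcripts lack a poly(A) tail and the libraries were selected with oligo(dT), so these values cover the polyadenylated share only. Members of this family are near copies of each other, and how reads were split between them is uncertain. DNA replication genes had a median of 0.01 over 37 genes, with 0 called. It was -0.33 without APR-246 library 1 and 0.28 without APR-246 library 2.

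Among 19 YAP and TEAD targets tested, CCN2 and CCN1 rose and 0 fell (0.324% and 0.0435% of all genes). The median of the 19 was 0.26, or 0.10 without APR-246 library 2. CCN2, a matricellular protein also called CTGF, stood at 5.51 and 3.67 CPM under APR-246 and 13.2 and 11.7 CPM after the combination and rose by 1.25 ± 0.21 (adjusted p = 0.00698). CCN1, its relative, stood at 35.3 and 22.6 CPM under APR-246 and 73.4 and 50.6 CPM after the combination and rose by 0.97 ± 0.20 (adjusted p = 0.0414). ANKRD1, another target, was near its detection limit at 0.0704 and 0.0727 CPM under APR-246 and 0.179 and 0.220 CPM after the combination. In a list of all WNT ligands, also chosen after WNT7A was seen, 16 of 19 were tested. WNT7A and WNT10A rose (0.324% of all genes) and the median was 0.38, or 0.24 with a pseudocount of 2.

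NF-kB targets and cytokines had 0 calls of 27, a median of 0.29, and 15 genes without overlap in the higher direction (16.3% of all genes). That median was 0.17 with a pseudocount of 2. CXCL8, a neutrophil chemokine, stood at 1.23 and 0.945 CPM under APR-246 and 5.20 and 2.27 CPM after the combination and was at 1.22 ± 0.45 (adjusted p = 0.3). CXCL1 was at 1.15 ± 0.42 (adjusted p = 0.289). Keratins had 0 calls of 18 and a median of 0.33, with 11 of 18 not overlapping in the higher direction (16.3% of all genes). Their median was 0.56 without APR-246 library 2, 0.18 without combination library 2 and 0.12 with a pseudocount of 2. SMAD7, the inhibitor of TGF-beta and BMP signals, stood at 1.94 and 2.05 CPM under APR-246 and 7.89 and 4.99 CPM after the combination and was at 1.32 ± 0.33 (adjusted p = 0.103). In the BMP and ID list 0 of 14 genes passed.

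On the lower side, 73 of 75 ribosomal protein genes lay below 0, with a median of -0.35. RPL3 alone passed (0.0435% of all genes fell), and 32 of the 75 had no overlap in the lower direction (4.71% of all genes). This median was -0.68 without APR-246 library 1, -0.03 without APR-246 library 2, -0.09 without combination library 1 and -0.62 without combination library 2. RPL13A was at -0.56 ± 0.13 (adjusted p = 0.067) and RPL10A at -0.55 ± 0.13 (adjusted p = 0.0587). ATF4 programme genes, which handle amino acid shortage, had a median of -0.40 over 34 genes and 0 calls. It was -0.20 without APR-246 library 1 and -0.23 without combination library 1. SLC6A9, a glycine transporter, stood at 22.3 and 13.5 CPM under APR-246 and 9.86 and 8.29 CPM after the combination and was at -1.03 ± 0.54 (adjusted p = 0.54). DDIT3, the stress factor CHOP, went the other way at 7.46 and 2.38 CPM under APR-246 and 14.1 and 8.29 CPM after the combination, and was at 1.14 ± 0.79 (adjusted p = 0.676).

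**Figure D2:**
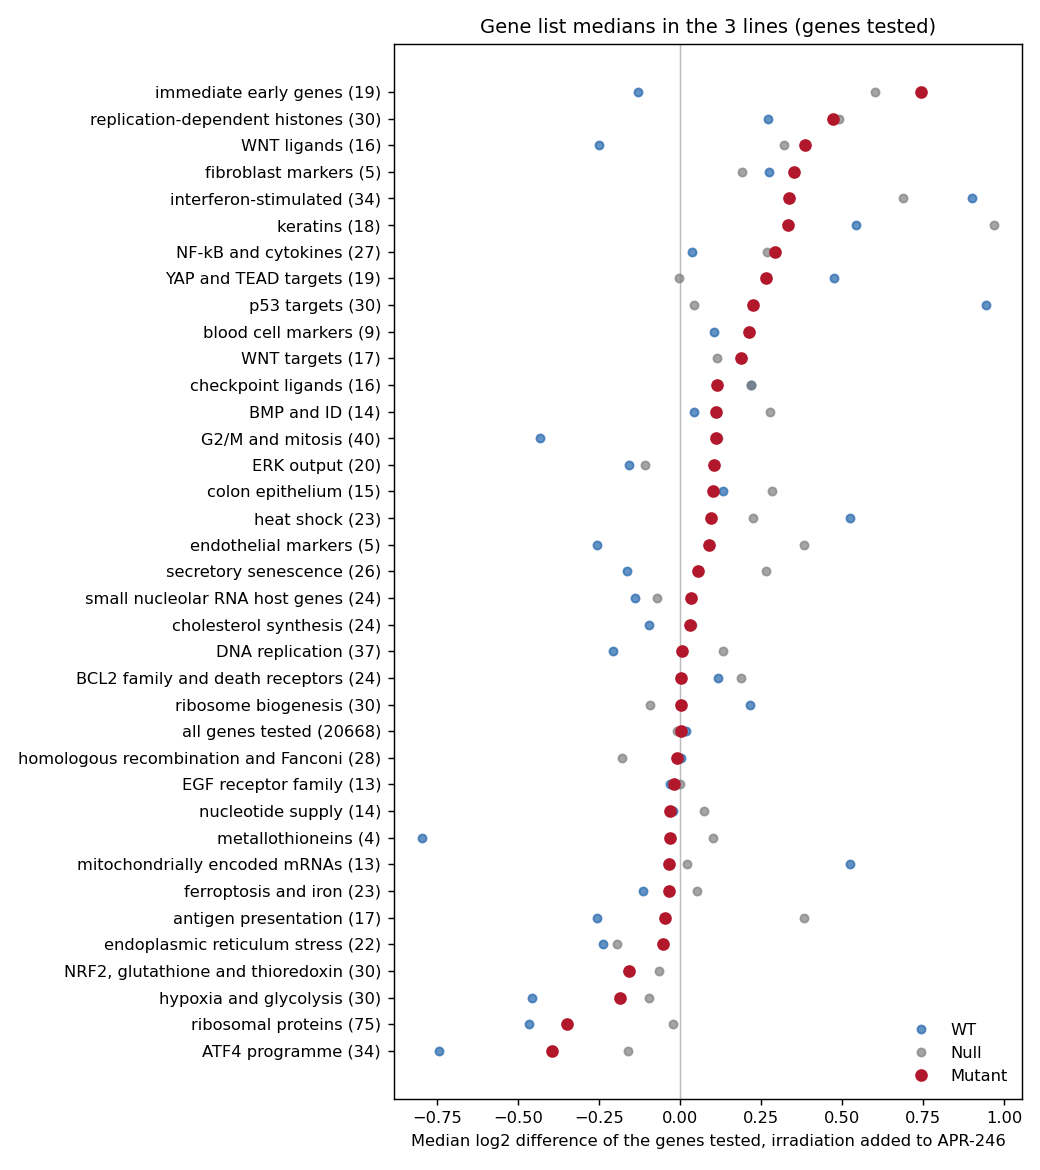
Median log2 difference, combination against APR-246 without the GC slope, for each gene list in the Mutant, WT and Null lines, with the number of genes tested after the name. In Mutant the medians run from -0.40 for the ATF4 programme to 0.74 for immediate early genes.

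The p53 targets did not pass in Mutant: 0 of 30 were called, the median was 0.22, and 7 had no overlap in the higher direction (23.3%, where all genes gave 16.3%). The median was 0.11 without combination library 1. CDKN1A (chromosome 6, 36676460 to 36687339, plus strand) stood at 123 and 88.7 CPM under APR-246 and 151 and 133 CPM after the combination and was at 0.32 ± 0.16 (adjusted p = 0.479). MDM2 stood at 28.7 and 9.24 CPM under APR-246 and 34.7 and 12.9 CPM after the combination and was at 0.25 ± 0.17 (adjusted p = 0.645). TP53I3, a quinone oxidoreductase, was at 0.30 ± 0.19 (adjusted p = 0.612), and BAX, which opens the outer mitochondrial membrane, at -0.06 ± 0.14 (adjusted p = 0.941). G2/M genes had 0 calls of 40 and a median of 0.11, which was 0.04 without APR-246 library 1, 0.00 without combination library 1 and 0.19 without combination library 2.

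The same comparison in the other lines shows where Mutant differs. With the GC slope 981 genes were called higher (4.75%) and 759 lower (3.67%) in WT, and 273 higher (1.32%) and 274 lower (1.33%) in Null. Without the slope the totals were 85 in WT and 5 in Null. The 2 WT APR-246 libraries stood far apart for some genes. CHAC1 was at 133 and 10.9 CPM there, against 141 and 272 CPM in WT solvent. DDIT4 was at 354 and 63.7 CPM, against 352 and 506 CPM in WT solvent. Other genes were closer, such as CDKN1A at 751 and 592 CPM under APR-246. The WT side of each difference and of the list medians rests on this pair. Of the 67 genes that rose in Mutant, 30 also rose in WT (44.8% of the 67 and 3.06% of the 981) and 26 in Null (38.8% of the 67 and 9.52% of the 273). The difference of Mutant minus WT itself called 0 genes without the slope (576 at an unadjusted p under 0.05, and 0 by edgeR). With the slope it called 18 genes higher (0.0871%) and 58 lower (0.281%). That total of 76 became 157 without WT APR-246 library 1, 786 without WT APR-246 library 2 and 19 without WT combination library 2. It became 22 without Mutant APR-246 library 2, 23 without Mutant combination library 1 and 29 without Mutant combination library 2.

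Of the 30 p53 targets, 10 had a lower change in Mutant than in WT by this test and 0 a higher one (0.281% and 0.0871% of all genes). They were TP53I3, TP53INP1, PLK2, MDM2, CDKN1A, FDXR, BAX, PPM1D, PHLDA3 and FBXO22. For CDKN1A the difference was -1.26 ± 0.22 (adjusted p = 0.00876), from a rise of 1.57 ± 0.16 in WT. For TP53I3 it was -1.98 ± 0.27 (adjusted p = 0.00144), and for MDM2 -1.26 ± 0.24 (adjusted p = 0.0139). CDKN1A also rose in Null, by 0.88 ± 0.16 (adjusted p = 0.00559). It stood there at 165 and 140 CPM under APR-246 and 287 and 294 CPM after the combination. It was the only 1 of the 30 called higher in Null (1.32% of all genes), against 22 in WT (4.75% of all genes). GALNT5, KLK5, ZBED2 and CPA4 gave the lowest values, from -2.81 for GALNT5, a mucin-type glycosyltransferase, to -2.15 for CPA4, a carboxypeptidase.

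IFIT1, IFIT2 and IFI6 also had a lower change in Mutant than in WT (0.281% of all genes). For IFIT1 the difference was -1.85 ± 0.28 (adjusted p = 0.00377). Its levels in WT were 2.17 and 2.57 CPM under APR-246 and 24.2 and 23.2 CPM after the combination. The Mutant libraries were thus the higher under APR-246 alone and the lower after the combination. IFI6 differed by -1.40 ± 0.28 (adjusted p = 0.0204), and ISG15 did not pass at -0.76 ± 0.20 (adjusted p = 0.106). Of the 34 interferon-stimulated genes tested, 21 rose in WT (4.75% of all genes), 15 in Null (1.32%) and 6 in Mutant (0.324%). Medians without the slope were 0.90, 0.69 and 0.33. With irradiation alone in Mutant, 16 of the 34 rose and 1 fell (5.71% and 7.78% of all genes).

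FOS, EGR1 and ESAM had a higher change in Mutant than in WT. In Null FOS and ESAM also rose, by 0.99 ± 0.20 and 0.85 ± 0.17, and EGR1 was at 0.54 ± 0.21 (adjusted p = 0.172). Of the 19 immediate early genes, 6 rose in Null (1.32% of all genes) and 1 in WT (4.75% of all genes). Their medians without the slope were 0.60 in Null and -0.13 in WT. FOS stood in WT at 34.5 and 18.9 CPM under APR-246 and 18.7 and 19.0 CPM after the combination, and the difference was 1.58 ± 0.28 (adjusted p = 0.00876). For EGR1 it was 1.57 ± 0.29 (adjusted p = 0.0155), where WT stood at 334 and 226 CPM under APR-246 and 192 and 244 CPM after the combination. For ESAM it was 1.10 ± 0.24 (adjusted p = 0.0369). YBX2, a germ cell RNA-binding protein, gave the highest value, 2.04 ± 0.34 (adjusted p = 0.00525), though its difference within Mutant did not pass (adjusted p = 0.179).

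**Figure D3:**
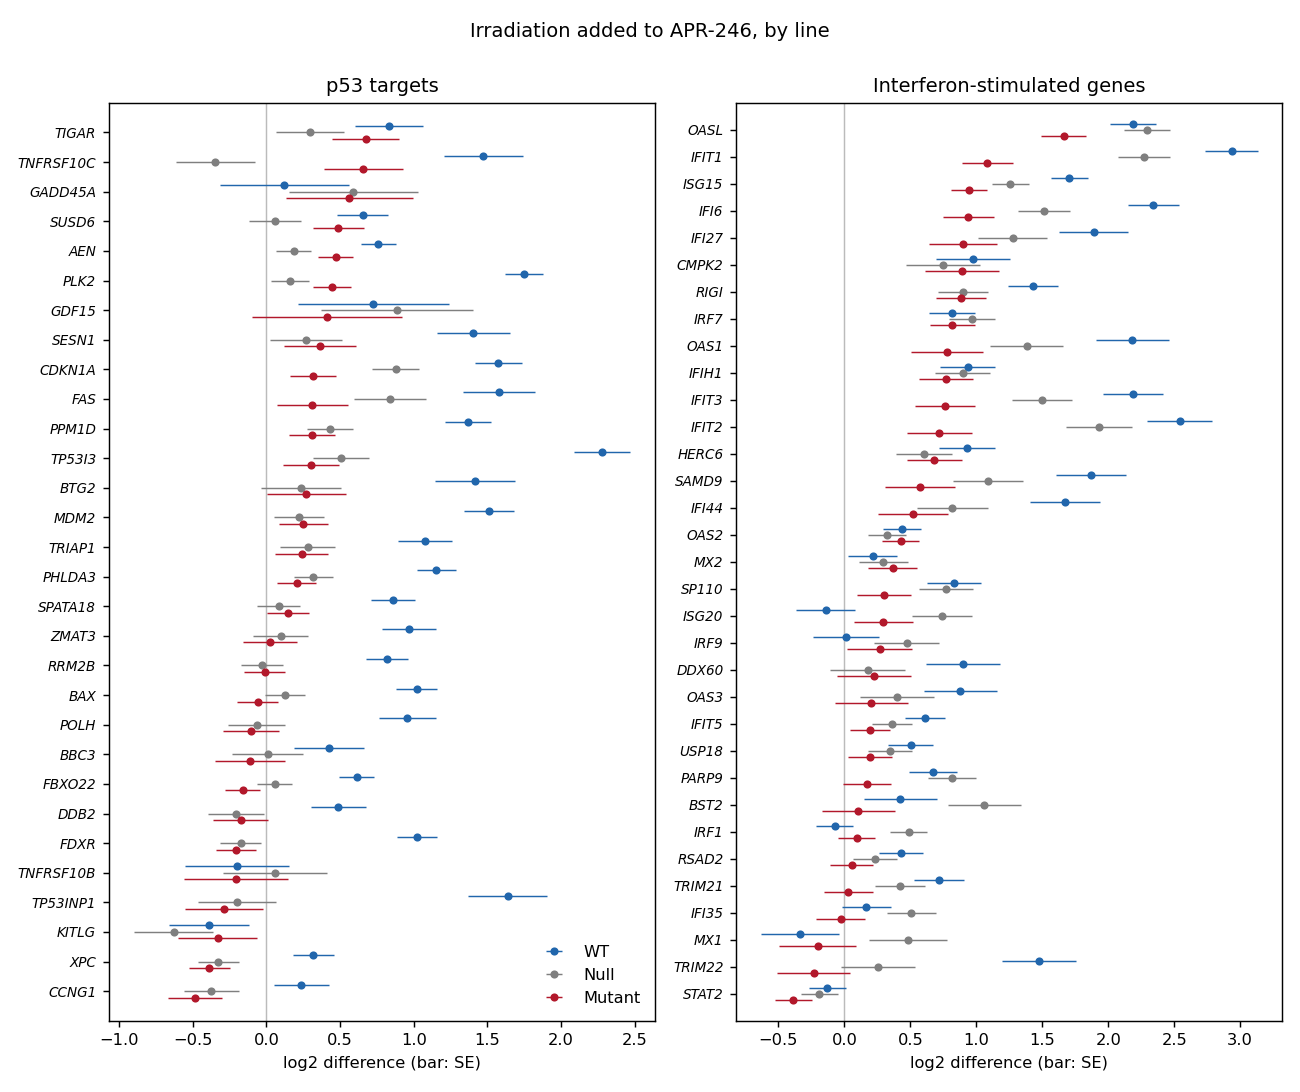
Log2 difference, combination against APR-246 with the GC slope, for p53 targets and interferon-stimulated genes in the WT, Null and Mutant lines, with bars of 1 SE. CDKN1A lies at 0.32 in Mutant, 0.88 in Null and 1.57 in WT, and IFIT1 at 1.08 in Mutant and 2.93 in WT.

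Against Null no difference passed. Mutant minus Null called 0 genes with the GC slope (0%) and 0 without it, with 939 and 352 genes at an unadjusted p under 0.05, and edgeR called 0 (292). The smallest adjusted p with the slope was 0.148, for WNT7A at 1.64 ± 0.28. WNT7A stood in Null at 9.0 and 7.04 CPM under APR-246 and 9.56 and 8.90 CPM after the combination, above the Mutant libraries in both groups.

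Irradiation without APR-246 can be set beside irradiation with it, since the pairs of groups share no library. Against solvent in Mutant, 1181 genes were called higher (5.71%) and 1607 lower (7.78%) with the GC slope, and 16 in total without it. Of the 67 genes that rose on top of APR-246, 43 also rose with irradiation alone (64.2% of the 67 and 3.64% of the 1181). Of the 9 that fell, 7 also fell there (77.8% of the 9 and 0.436% of the 1607). The median of the 67 was 0.98 with APR-246 and 0.85 without. The 67 were chosen by their difference with APR-246, which favours a high median there. These medians therefore cannot show whether irradiation had a larger effect with APR-246 than without. Over 12250 genes the log2 differences of both comparisons had a Pearson r of 0.287 and a Spearman rho of 0.218, as a description across genes, which are not independent.

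The difference between irradiation with and without APR-246 called 0 genes with the GC slope (0%) and 0 without it, with 2684 and 766 genes at an unadjusted p under 0.05, and edgeR called 0 (695). WNT10A rose by 1.15 on APR-246 and stood at 0.20 ± 0.26 without it, a difference of 0.95 ± 0.35 (adjusted p = 0.263). SGK1, a stress-induced kinase, rose by 1.01 ± 0.20 with APR-246 and 2.05 ± 0.21 without, a difference of -1.04 ± 0.29 (adjusted p = 0.194). ATF4 programme genes had a median of -1.41 with irradiation alone, where 25 of 34 fell (7.78% of all genes). DNA replication genes had one of 1.03, where 19 of 37 rose (5.71% of all genes).

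**Figure D4:**
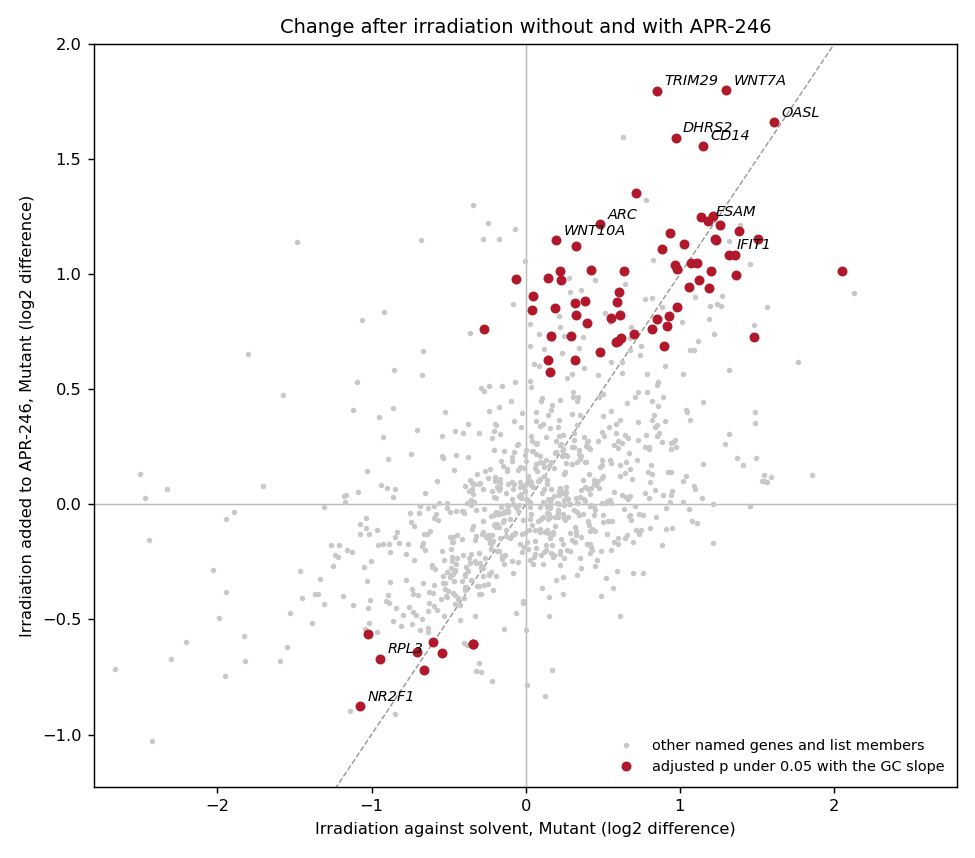
Log2 difference in Mutant with the GC slope, for irradiation against solvent (horizontal) and irradiation added to APR-246 (vertical), with genes called in the latter in red, other named genes and list members in grey and the line of equal values dashed. WNT7A and OASL lie at the upper right, at 1.30 and 1.61 horizontally.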

How the data were processed

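Poly(A) RNA from 24 libraries in 12 groups of 2 was sequenced in pairs of 100 bases. Per the submitters' processing notes FastQC, STAR and featureCounts from Subread were used on GRCh38.p13. Whether counting used strand is not given in the sources used here, so overlapping and antisense genes cannot be told apart. The deposited values are CPM over 60675 gene ids, and dividing by the smallest step gave whole reads for 100% of values within 0.05 of a read, 53184139 to 58058729 a library. Even counts prevailed, so mates seem counted singly. A floor of 3 reads is 0.0517 to 0.0564 CPM and covers counting error only.

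Symbols were matched for 42259 ids and coordinates for 58444 (GENCODE 29). limma 3.58.1 (R 4.3.3, edgeR 4.0.16 for TMM) was fitted to log2 of TMM-scaled CPM plus 0.5, which understates folds of low genes, for the 20668 genes kept by filterByExpr at a count minimum of 10. All libraries entered, with 1 coefficient a group and 12 residual degrees of freedom (11 with the GC slope). Values with ± are log2 differences and SE, and p-values are Benjamini-Hochberg adjusted over all genes. edgeR and DESeq2 1.42.0 ran on the recovered reads. In the GC slope model the slope of each library's log2 levels on gene GC percent was a covariate. It was one of the alternatives listed for this comparison.

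Named genes are the 12 of smallest p in each direction with a symbol, 1 CPM in a group and no overlap, genes called with the GC slope, index genes of 34 lists and genes called between lines. The genes called with the GC slope, the 2 added lists and the printed promoters were chosen after their values were seen. Members and lists were chosen with earlier results of these data known.

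The scripts were tested on simulated data with known changes, drawn from a model that held the GC slope. In the Mutant comparison limma recovered 1% of 2-fold and 40% of 4-fold changes with 3 false calls. The edgeR test recovered the same shares with 0 false calls. With the GC slope limma recovered 77% and 99% with 14 false calls, in data built with that slope. A count of 0 without the slope therefore does not show that no gene changed. The differences between lines or treatments were not simulated. Some genes are not reported here.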

Additional observations from a re-analysis of the deposited data

Results flagged for a closer look

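The change after irradiation was added to APR-246 differed between Mutant and WT for 76 genes, by the test of the difference with the GC slope in limma. The 23 of them that the text describes are given here. Among p53 targets it was lower in Mutant for TP53I3 at -1.98 ± 0.27 (adjusted p = 0.00144), TP53INP1 at -1.93 ± 0.38 (adjusted p = 0.0193), PLK2 at -1.30 ± 0.18 (adjusted p = 0.00145), MDM2 at -1.26 ± 0.24 (adjusted p = 0.0139), CDKN1A at -1.26 ± 0.22 (adjusted p = 0.00876), FDXR at -1.23 ± 0.20 (adjusted p = 0.00377), BAX at -1.08 ± 0.20 (adjusted p = 0.0109), PPM1D at -1.05 ± 0.22 (adjusted p = 0.0295), PHLDA3 at -0.95 ± 0.19 (adjusted p = 0.0197) and FBXO22 at -0.77 ± 0.17 (adjusted p = 0.0369). Among interferon-stimulated genes it was lower for IFIT1 at -1.85 ± 0.28 (adjusted p = 0.00377), IFIT2 at -1.82 ± 0.35 (adjusted p = 0.0175) and IFI6 at -1.40 ± 0.28 (adjusted p = 0.0204). It was also lower for GALNT5 at -2.81 ± 0.28 (adjusted p = 2.06e-05), KLK5 at -2.58 ± 0.40 (adjusted p = 0.00377), ZBED2 at -2.25 ± 0.38 (adjusted p = 0.0116), CPA4 at -2.15 ± 0.25 (adjusted p = 0.000134), KRT8 at -0.97 ± 0.20 (adjusted p = 0.0276) and IGFBP6 at -0.91 ± 0.19 (adjusted p = 0.0283). It was higher in Mutant for YBX2 at 2.04 ± 0.34 (adjusted p = 0.00525), FOS at 1.58 ± 0.28 (adjusted p = 0.00876), EGR1 at 1.57 ± 0.29 (adjusted p = 0.0155) and ESAM at 1.10 ± 0.24 (adjusted p = 0.0369). KRT8, a keratin of simple epithelia, stood in Mutant at 2883 and 4683 CPM under APR-246 and 3273 and 4922 CPM after the combination.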

How the results depend on the processing

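The count of 0 for the addition of irradiation in Mutant became 7 with DESeq2, 1 with no scaling, 20 with no filter, 2 with the replicate number as a block (WNT7A and OASL), 76 with the GC slope and 84 with the GC slope and the block. It became 2 with edgeR and the block, chosen after seeing the data like the fits that leave out a library with the GC slope. It was 0 to 16 without single libraries, the 16 arising without APR-246 library 1, and 2 without combination library 1. With the GC slope and a library left out it was 24 (8 higher and 16 lower, without APR-246 library 1), 16, 8 and 6. It stayed 0 with edgeR, DESeq2 size factors, either pseudocount, a filter at 1 CPM, a block within each line, the 8 Mutant libraries and the 4 libraries alone. The lone library of a group is assumed to vary like the others.

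Mutant minus Null became 7 with no filter and 0 to 15 without single libraries. Mutant minus WT became 1 with no scaling, 4 with no filter, 5 with the block, 76 with the GC slope and 0 to 16 without single libraries. With the GC slope and a library left out it was 157, 786, 102 and 19 for WT libraries and 86, 22, 23 and 29 for Mutant libraries. Irradiation with minus without APR-246 became 5 with no filter and 0 to 15 without single libraries.

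Deviations of same-numbered libraries from their group means correlated at 0.913 between the groups compared, but at -0.688 to -0.219 between Null APR-246 and the other 11 groups. Among those 11 the lowest was 0.498. The labels give the number no meaning and each group has 2 libraries, so the number is not treated as a pairing and the block is given here alone. With the block the calls rose from 85 to 277 in WT, from 5 to 103 in Null and from 16 to 2416 for irradiation alone in Mutant, where a block within each line gave 1692. Without scaling the median of all genes was 0.08 instead of 0.00. Named genes changed sign in 292 of 4853 pairs of gene and setting, none of them called in either fit.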

Other observations

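Several further gene lists had 0 genes called with the GC slope when irradiation was added to APR-246 in Mutant, and medians that moved with single libraries. Hypoxia and glycolysis genes had a median of -0.19, or -0.38 without APR-246 library 1 and 0.04 without combination library 1. Genes of NRF2, glutathione and thioredoxin had one of -0.16, or -0.29 without APR-246 library 1 and -0.06 without combination library 1. Heat shock genes were at 0.09 and cholesterol synthesis genes at 0.03. These were -0.24 and -0.42 without APR-246 library 1, and 0.41 and 0.21 without APR-246 library 2. With irradiation alone, 12 of 23 heat shock genes and 8 of 24 cholesterol synthesis genes were called higher with the GC slope, against 5.71% of all genes.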
